A study of Saccharomyces cerevisiae with 5 samples.

Results

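The genes described here encode the antioxidant enzymes, the thioredoxin and glutathione systems and the pentose phosphate pathway of Saccharomyces cerevisiae. They were chosen by name from a list of 42 genes, and spots were taken where the platform annotation carried one of these symbols, out of 5583 genes named on the arrays. All 42 were on both platforms, with 49 spots on the first and 84 on the second. On each of 5 spotted 2-channel arrays, RNA precipitated together with zzYra1 (the immunoprecipitate, IP) was compared with total RNA. Yra1 helps carry mRNA out of the nucleus by binding it and passing it to the export receptor, and zz is the tag as the labels write it. The labels place the IP RNA in channel 1 for arrays 1 and 3, and in channel 2 for the other 3 arrays (2, 4 and 5). Arrays 1 and 2 are of the first platform, arrays 3, 4 and 5 of the second. The labels give no strain, medium or growth stage for either RNA, and a precipitation without the tagged protein was not analysed here. The question was how far transcripts of this defence system stood above or below the other transcripts in the IP relative to total RNA.

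As background, superoxide dismutases turn superoxide into hydrogen peroxide, which catalases and thiol peroxidases then remove. The thiol peroxidases are recharged by thioredoxin or glutathione, and the reducing power for both comes from NADPH. The oxidative branch of the pentose phosphate pathway makes much of that NADPH, while the non-oxidative branch returns its sugars to glycolysis.

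Values are given as the deposited ratio on the log2 scale minus the median of all spots of the array. A value of 1 thus means a ratio 2-fold that of the array's median spot. No source used here says whether the deposited ratio runs from IP to total RNA or between the channels. High and low therefore describe the deposited ratio. Turning the channel 2 arrays would reverse the sign of every value of arrays 2, 4 and 5, and the means over 4 units are also given with these arrays turned, beside the mean or in the closing section. Since arrays 1 and 2 have exchanged channels and may hold the same extracts, their mean was taken as 1 unit, beside arrays 3, 4 and 5 as 1 unit each. The values of the 2 arrays were unrelated across genes. As deposited, Pearson's r was 0.008 over the 3814 genes measured on both, and 50.2% had the same sign. Turning array 2 only reverses the sign of this r. Whether the arrays hold the same extracts was not tested. The labels do not name separate cultures. The p-values therefore speak of the spread between arrays, which may be technical, and the small number of arrays limits the precision.

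How many of the genes could be compared depended on the array. Array 1 had a value for 42 of 42, or 100%, against 99.2% of all genes of its platform. Array 2 had a value for 27 (64.3%, against 68.9% of all genes), and array 3 for 23 (54.8%, against 48.8%). On array 4 it was 17 (40.5%, against 57.7%) and on array 5 it was 15 (35.7%, against 31.0%). Of the 42 genes, 7 had a value in all 4 units, 10 in 3 units, 14 in 2 and 11 in 1. The 7 were SOD1, SOD2, AHP1, GRX3, ECM38, ZWF1 and TKL1. They passed because a value was kept in every unit, and they do not stand for the whole list.

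**Figure D1:**
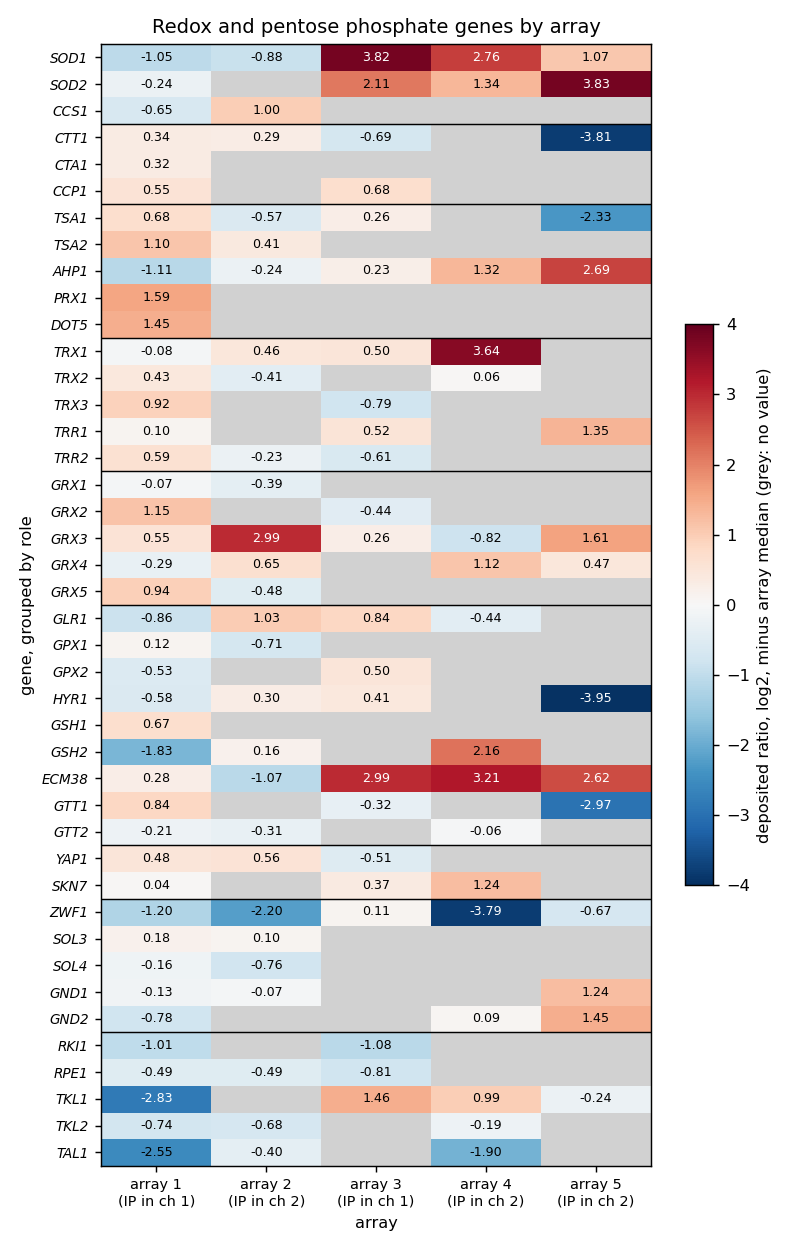
Heat map of the deposited ratio (log2, minus the array median) of the 42 genes in rows, grouped by role, on the 5 arrays in columns; grey cells had no value. SOD1, SOD2 and ECM38 are above 1 on arrays 3, 4 and 5 and below 0.3 where measured on arrays 1 and 2 (SOD2 has no value on array 2), and ZWF1 reaches -3.79 on array 4.

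No gene of the list passed. Over the 703 genes measured in all 4 units, fitted with limma and adjusted by Benjamini-Hochberg, 0 of the 7 had an adjusted p under 0.05, as did 0.0% of all genes tested. At an unadjusted p under 0.05 stood 2 of the 7, ECM38 and SOD2, against 7.82% of all genes. With the trend and robust options of limma it was 1 of the 7, ECM38, against 2.70% of all genes. Of the 7 means, 5 lay above 0 and 2 below, against 51.8% of all genes above 0, and with the channel 2 arrays turned 1 lay above and 6 below, against 49.4% of all genes above 0. Their median was 0.89, against 0.04 over all tested genes, and with the channel 2 arrays turned it was -0.53, against -0.02.

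Both superoxide dismutase genes were above 1 on every array of the second platform. SOD1, the cytosolic copper and zinc enzyme, had -1.05 and -0.88 on arrays 1 and 2, and 3.82, 2.76 and 1.07 on arrays 3, 4 and 5. As deposited, the 3 arrays of the second platform thus lay above both arrays of the first. How many of all genes did so was not counted. With the channel 2 arrays turned, arrays 4 and 5 were at -2.76 and -1.07, below array 1. Its mean over units was 1.67 ± 2.09 (SD, n = 4; limma, adjusted p = 0.62), with a 95% interval of -0.10 to 3.44. Array 3 carried much of it, and without that array the mean was 0.96. SOD2, the mitochondrial manganese enzyme, had -0.24 on array 1, no value on array 2, and 2.11, 1.34 and 3.83 on arrays 3, 4 and 5. SOD2 was thus a little below the median on array 1, at the 38.2nd percentile of all genes. As deposited it was high on all arrays of the second platform. Its mean was 1.76 ± 1.69 (SD, n = 4; limma, adjusted p = 0.57), with an interval of 0.17 to 3.35, and 1.07 without array 5. With the channel 2 arrays turned, SOD1 averaged -0.02 and SOD2 -0.82. CCS1, the chaperone that loads copper into Sod1, had values on the first platform only, -0.65 on array 1 and 1.00 on array 2.

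The glutathione genes did not share a direction. ECM38, the vacuolar enzyme that begins the breakdown of glutathione, had 0.28 and -1.07 on arrays 1 and 2, and 2.99, 3.21 and 2.62 on arrays 3, 4 and 5. On the second platform its values were close together and high, at the 98.9th, 98.8th and 89.6th percentile of all genes on arrays 3, 4 and 5. They averaged 2.94 ± 0.30 there (SD, n = 3; limma, adjusted p = 0.28 over 704 genes), and -0.95 with arrays 4 and 5 turned. Over 4 units the mean was 2.11 ± 1.68 (SD, n = 4; limma, adjusted p = 0.54), with an interval of 0.52 to 3.69, and -0.54 with the channel 2 arrays turned. GSH2, which completes glutathione synthesis, had -1.83 on array 1, 0.16 on array 2 and 2.16 on array 4. GSH1, which catalyses the step before it, was measured on array 1 alone, at 0.67. GLR1, the reductase that recycles oxidised glutathione, had -0.86, 1.03, 0.84 and -0.44 on arrays 1 to 4. As deposited, GSH2 and GLR1 each had values of both signs. With the channel 2 arrays turned, GSH2 was below 0 on 3 of 3 arrays and GLR1 on 2 of 4.

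Among the glutathione peroxidases and transferases the lowest values came from array 5. HYR1, encoding the peroxidase that passes the peroxide signal to Yap1, had -0.58, 0.30 and 0.41 on arrays 1, 2 and 3 and -3.95 on array 5. GTT1, a glutathione transferase, had 0.84 and -0.32 on arrays 1 and 3, and -2.97 on array 5. For GTT2, GPX1 and GPX2, no value averaged over a gene's spots was beyond 1 in either direction. GTT2, the second transferase, ran from -0.31 to -0.06 over arrays 1, 2 and 4, GPX1 had 0.12 and -0.71 on arrays 1 and 2, and GPX2 had -0.53 and 0.50 on arrays 1 and 3.

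**Figure D2:**
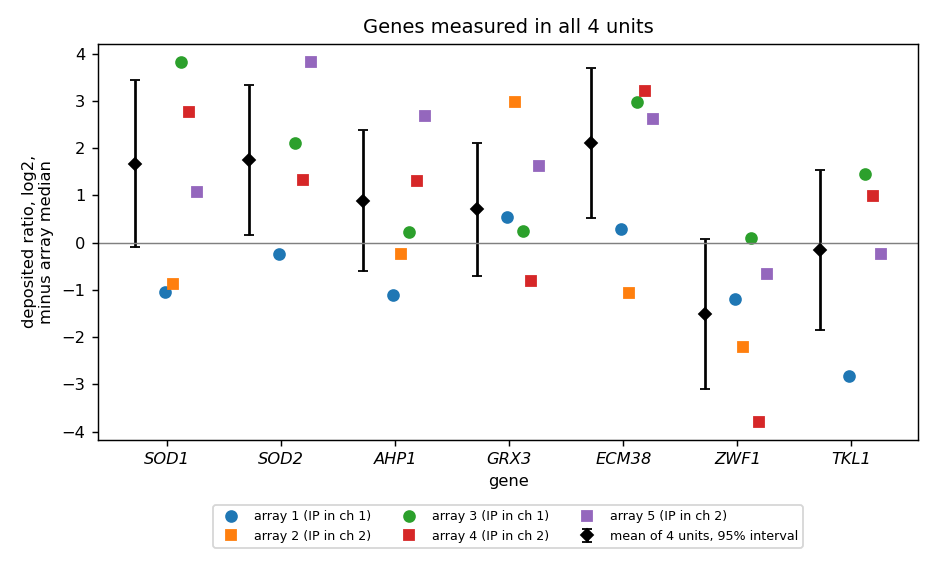
Deposited ratio (log2, minus the array median) of the 7 genes measured in all 4 units, with 1 point per array (circles, IP RNA in channel 1; squares, in channel 2) and, at the left of each gene, the mean of the 4 units with its 95% interval. The intervals of ECM38 and SOD2 alone lie above 0, before adjustment for the 703 genes, and ZWF1 is the lowest mean at -1.51.

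The thiol and haem peroxidases varied from gene to gene. AHP1, a peroxiredoxin that prefers alkyl hydroperoxides, had -1.11 and -0.24 on arrays 1 and 2, and 0.23, 1.32 and 2.69 on arrays 3, 4 and 5. As with the dismutases, the second platform lay above the first as deposited, and the share of all genes doing so was not counted. With the channel 2 arrays turned, arrays 4 and 5 were at -1.32 and -2.69, below array 1. Its mean was 0.89 ± 1.45 (SD, n = 4; limma, adjusted p = 0.67), and 0.29 without array 5. With the channel 2 arrays turned it was -1.05. TSA1, the main cytosolic peroxiredoxin, had 0.68, -0.57 and 0.26 on arrays 1, 2 and 3, and -2.33 on array 5. Its paralogue TSA2 had 1.10 and 0.41 on arrays 1 and 2. As deposited, TSA1 changed sign between arrays, while TSA2 was positive on both arrays that measured it. With the channel 2 arrays turned, TSA1 was above 0 on 4 of 4 arrays and TSA2 on 1 of 2. PRX1 of mitochondria and DOT5 of the nucleus had a value on array 1 alone, 1.59 and 1.45, the highest of the list on that array. Cytosolic catalase, encoded by CTT1, had 0.34, 0.29 and -0.69 on arrays 1, 2 and 3 and -3.81 on array 5. CTA1, the peroxisomal catalase, had 0.32 on array 1, and CCP1, the mitochondrial cytochrome c peroxidase, 0.55 on array 1 and 0.68 on array 3.

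Thioredoxin and glutaredoxin genes also showed single high arrays. TRX1, a cytosolic thioredoxin, had -0.08, 0.46 and 0.50 on arrays 1, 2 and 3, and 3.64 on array 4, where it was the highest gene of the list. Its paralogue TRX2 had 0.43, -0.41 and 0.06 on arrays 1, 2 and 4, so the pair differed by 3.58 on array 4. Array 4 alone set TRX1 far from the median. TRR1, the cytosolic thioredoxin reductase, had 0.10, 0.52 and 1.35 on arrays 1, 3 and 5, and mitochondrial TRR2 had 0.59, -0.23 and -0.61 on arrays 1, 2 and 3. TRX3, the mitochondrial thioredoxin, had 0.92 on array 1 and -0.79 on array 3.

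GRX3, a monothiol glutaredoxin that acts on the iron regulator Aft1, had 0.55 and 2.99 on arrays 1 and 2, and 0.26, -0.82 and 1.61 on arrays 3, 4 and 5. Array 2 was far above the rest and array 4 was the one below 0. The mean over units was 0.71 ± 1.22 (SD, n = 4; limma, adjusted p = 0.71), 0.40 without array 2 or without array 5, 0.24 with a running median of 81 neighbouring spots removed, and -0.44 with the channel 2 arrays turned. Its paralogue GRX4 had -0.29, 0.65, 1.12 and 0.47 on arrays 1, 2, 4 and 5. Of the dithiol glutaredoxins, GRX1 had -0.07 and -0.39 on arrays 1 and 2, and GRX2 had 1.15 on array 1 and -0.44 on array 3. GRX5, which serves iron-sulfur cluster assembly in mitochondria, had 0.94 on array 1 and -0.48 on array 2. GRX2 and GRX5 were thus high on array 1 and, as deposited, below the median on the other array that measured them. With the channel 2 arrays turned, GRX5 was above 0 on both. The transcription factor genes lay within 1 of the array medians, except SKN7 on array 4. YAP1, the main peroxide-responsive activator, had 0.48, 0.56 and -0.51 on arrays 1, 2 and 3, and SKN7, which works with it, had 0.04, 0.37 and 1.24 on arrays 1, 3 and 4.

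In the oxidative branch of the pentose phosphate pathway, ZWF1 was the low gene. Its product, glucose-6-phosphate dehydrogenase, commits sugar to the pathway. ZWF1 had -1.20 and -2.20 on arrays 1 and 2, and 0.11, -3.79 and -0.67 on arrays 3, 4 and 5. It was below 0 on 4 of 5 arrays (with the channel 2 arrays turned, on 1 of 5) and, on arrays 2 and 4, below the 1st percentile of all genes (0.832 and 0.469). Its mean was -1.51 ± 1.69 (SD, n = 4; limma, adjusted p = 0.62), with an interval of -3.10 to 0.07. Without array 4 it was -0.75, and with the channel 2 arrays turned 1.27. Arrays 2, 4 and 5, which run the same way whichever way the ratio was formed, gave ZWF1 a mean of -2.22 (limma, unadjusted p = 0.026, adjusted p = 0.71). The other 5 listed genes measured on these arrays had means above 0, at 0.98 for SOD1, 1.26 for AHP1, 1.26 for GRX3, 0.75 for GRX4 and 1.59 for ECM38, with limma's unadjusted p between 0.14 and 0.28 and adjusted p between 0.71 and 0.76. Of all 735 genes measured on arrays 2, 4 and 5, 53.6% had a mean above 0. An unadjusted p under 0.05 in limma was reached by 5.71% of them. As deposited, none of the next genes of the branch was below -1 on any array. With the channel 2 arrays turned, GND1 and GND2 were at -1.24 and -1.45 on array 5. The lactonase genes SOL3 and SOL4 had 0.18 and -0.16 on array 1 and 0.10 and -0.76 on array 2. GND1, the main 6-phosphogluconate dehydrogenase, had -0.13, -0.07 and 1.24 on arrays 1, 2 and 5, and its paralogue GND2 had -0.78, 0.09 and 1.45 on arrays 1, 4 and 5.

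Genes of the non-oxidative branch were below the array median on the first platform. On array 1 all 5 were below 0, with a median of -1.01, where 49.4% of all genes were above 0. On array 2 the 3 with a value were below 0, with a median of -0.49, where 50.2% of all genes were above 0. TAL1, TKL2, RKI1 and RPE1 were below 0 on every array that measured them, and TKL1 was not. Each of the 4 had a value on only 2 or 3 arrays, and the share of all genes with such a run was not counted. With the channel 2 arrays turned, RKI1 alone stayed below 0 throughout, measured on arrays 1 and 3. TAL1 and TKL2 were then each above 0 on 2 of 3 arrays and RPE1 on 1 of 3. With the running median of 81 spots removed instead, RPE1 was at 0.23 on array 3. TAL1, transaldolase, had -2.55 on array 1, -0.40 on array 2 and -1.90 on array 4. TKL1, the main transketolase, had -2.83 on array 1, then 1.46, 0.99 and -0.24 on arrays 3, 4 and 5. It was the lowest of the list on array 1 and above 1 on array 3. Its mean was -0.15 ± 1.92 (SD, n = 4; limma, adjusted p = 0.94), with an interval of -1.85 to 1.54. Without arrays 1 and 2 the mean was 0.74. Its paralogue TKL2 had -0.74, -0.68 and -0.19 on arrays 1, 2 and 4. RKI1 and RPE1, the isomerase and epimerase of the pentose phosphates, had -1.01 and -0.49 on array 1 and -1.08 and -0.81 on array 3, and RPE1 had -0.49 on array 2.

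Set beside all genes, the listed genes that had a value were centred near 0 on arrays 1, 2 and 3 and had higher medians on arrays 4 and 5. Its median came to -0.02 for array 1, -0.24 for array 2 and 0.26 for array 3, and to 0.99 and 1.07 for arrays 4 and 5. The medians of all genes on these arrays lay between -0.10 and 0.003. On array 4, 8 of 17 listed genes were above 1, against 14.0% of all genes, and on array 5, 8 of 15, against 29.8%. On array 3 it was 4 of 23 against 13.0%, on array 1 it was 4 of 42 against 8.92%, and on array 2 it was 2 of 27 against 8.53%. Below -1 on array 5 were 4 of 15, against 34.8%. With the running median of 81 spots removed, the list's median came to 0.57 on array 4 and 0.30 on array 5. Above 1 were then 5 of 17 on array 4, against 11.5% of all genes, and 3 of 15 on array 5, against 18.1%. These are descriptions of the genes that had a value, and no test was made over the list.

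**Figure D3:**
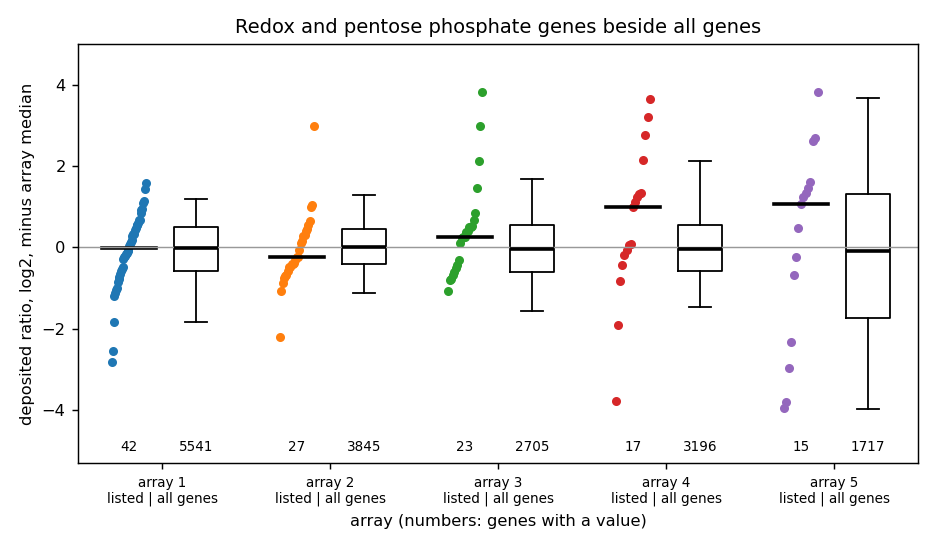
Deposited ratio (log2, minus the array median) of the listed genes (points, black bar at their median) at the left and of all genes (box from the 25th to the 75th percentile, whiskers from the 5th to the 95th) at the right for each array, with the number of genes having a value printed below. The median of the listed genes is 0.99 on array 4 and 1.07 on array 5, and within 0.3 of 0 on arrays 1, 2 and 3.

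Of the 7 genes measured on arrays 3, 4 and 5, SOD1, SOD2, AHP1 and ECM38 were above 0 on all 3, which 21.3% of the 704 genes measured there were. SOD1, SOD2 and ECM38 were above 1 on all 3, as were 6.39% of these genes, and ECM38 was above 2, as were 1.42%. None of the 5 listed genes measured on all 5 arrays was above 0 on every one, against 5.26% of all such genes, and none of the 7 had 1 sign in all 4 units, against 15.1%. With arrays 3, 4 and 5 alone, ECM38, SOD1 and SOD2 had an unadjusted p under 0.05, with adjusted p of 0.28, 0.30 and 0.32 in limma, where 9.23% of genes had such an unadjusted p and 0.0% passed after adjustment. The IP RNA was in channel 1 on array 3 and in channel 2 on arrays 4 and 5, so which RNA these high values favour cannot be told apart from how the ratio was formed.

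The second platform printed each gene on neighbouring spots, which shows how well a single array repeated itself. On array 3, 15 listed genes had a value at both spots, with a median difference of 0.64. It was 0.21 over 12 genes on array 4 and 0.47 over 14 genes on array 5. All genes had median differences of 0.44, 0.34 and 0.41 on these arrays. For ECM38 the spots gave 3.33 and 2.65 on array 3, 3.17 and 3.26 on array 4, and 2.42 and 2.83 on array 5. For ZWF1 on array 4 they gave -3.52 and -4.06. Between arrays, the listed genes with a value on both differed more, though the sets of genes were not the same. As deposited, the median difference was 1.07 between arrays 3 and 4 over 10 listed genes, 2.09 between arrays 3 and 5 over 12, and 1.37 between arrays 4 and 5 over 9. Over all genes with a value on both, the median difference was 0.84, 1.68 and 1.62 for these pairs. Pearson's r across all genes was 0.07, 0.23 and 0.16 for them. Over all pairs of the 5 arrays it lay between -0.045 and 0.23, so the arrays shared little of their ranking of genes. The differences of array 3 from arrays 4 and 5 depend on the direction of the ratio.

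**Figure D4:**
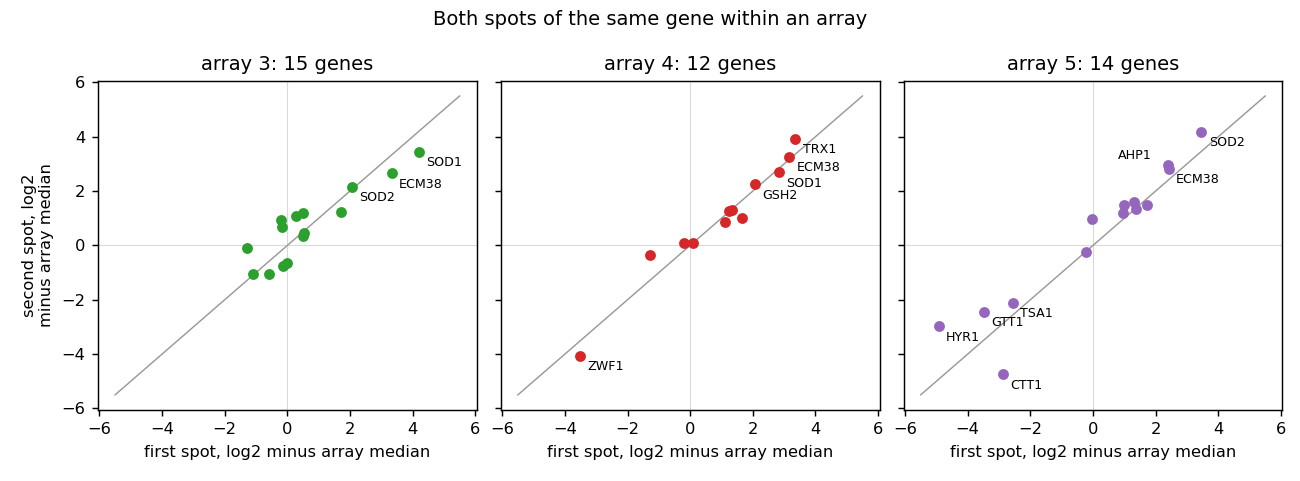
Both spots of a listed gene on arrays 3, 4 and 5, first spot on the horizontal and second on the vertical axis (log2, minus the array median), with the line of equality; genes beyond 1.9 in either direction are named. ECM38 lies near 3 on every array, ZWF1 near -4 on array 4, and the lowest genes of array 5, CTT1 and HYR1, differ by 1.87 and 1.94 between their spots.

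Neighbouring spots of different genes also had like ratios, and the part of position in the agreement between spots of 1 gene was not tested. Across pairs of adjacent spots carrying different genes, Pearson's r was 0.52 on array 3, 0.26 on array 4 and 0.74 on array 5, against 0.79, 0.86 and 0.92 for adjacent spots of 1 gene. On array 1, adjacent spots of different genes had r = 0.51, while spots of 1 gene, which lay apart, had r = 0.12 over 1098 genes. On array 2 these values were 0.17 and 0.31. Pairs of spots share the array and the place, and these r describe that. Of the 7 listed genes with both spots on array 1, the values differed by up to 1.75 (GTT2, 0.67 and -1.08).

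The low values of array 5 came from fractions with very small top terms. As deposited, 88.2% of its ratios were fractions of whole numbers, and 92.2% of these had a bottom term divisible by 11. A shared factor of 0.44 was therefore taken out. The share of fractions was then 86.9%, no higher than before, but the median product of the 2 terms fell from 536800 to 10017. The 8 listed spots below -2, of CTT1, HYR1, GTT1 and TSA1, had a top term of 1 to 5 over a bottom term of 23 to 99 in lowest terms. CTT1 had 1 over 23 and 1 over 84, and HYR1 had 1 over 95 and 4 over 99. Of all spots between -3 and -2 on the array, 93.5% had a top term of 10 or less, and below -3 it was 98.3%. Above 2 it was 0.288%. With a running median of 81 spots removed, the array 5 value was -0.57 for CTT1, -0.50 for HYR1, -0.87 for GTT1 and 0.36 for TSA1. It was 4.66 for ECM38, 3.05 for SOD2, 3.32 for AHP1 and 0.30 for SOD1. High values also came nearer 0 or changed sign, to 0.33 for GRX3, 0.13 for TRR1, 0.68 for GND1, -1.05 for GND2 and -0.60 for GRX4, and ZWF1, from 1 spot of 1 over 5, was at 0.33. With this correction no listed gene below -2 before it remained there, and ECM38, SOD2 and AHP1 were above 3, while TKL1 was at -2.34.

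**Figure D5:**
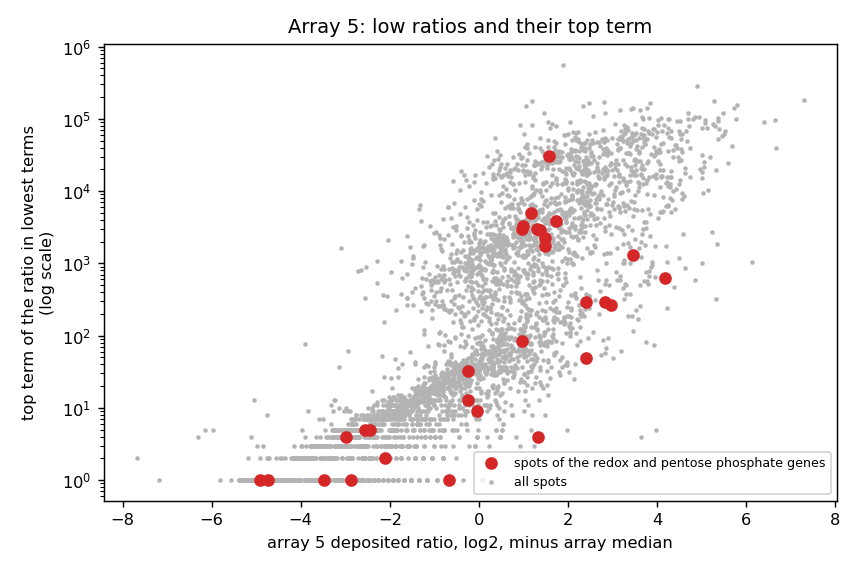
Top term of each ratio of array 5 in lowest terms, with the shared factor of 0.44 taken out (vertical, log scale), against the deposited ratio (horizontal, log2, minus the array median), for spots of the listed genes (red) and all spots (grey). The 8 listed spots below -2 have top terms of 1 to 5, as have most other spots there.

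Duplicated genes of the list gave little common pattern. The 10 paralogue pairs had 23 values on the same array, 11 of them with 1 sign, and a median difference of 0.86. The closest were GPX2 and HYR1, 0.05 apart on array 1 and 0.09 on array 3, and GND1 and GND2, 0.21 apart on array 5. GRX3 and GRX4 differed by 2.34 on array 2 and by -1.94 on array 4, and TAL1 and its paralogue NQM1 differed by -2.31 on arrays 1 and 4. Hybridisation between such copies was not tested.

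Another 43 genes of redox defence and NADPH supply outside the list were read from the same fit. Of these, 6 were measured in all 4 units, and 0 passed in limma, with 0 also at an unadjusted p under 0.05. All 6 means were below 0, with a median of -0.32, from IDP2, the cytosolic NADP isocitrate dehydrogenase (-0.01; limma, adjusted p = 0.99), to MXR1, a methionine sulfoxide reductase (-1.23; limma, adjusted p = 0.62). With the channel 2 arrays turned, 4 of the 6 were above 0, with a median of 0.57, and IDP2 was at -0.29 and MXR1 at 0.62. Their medians on single arrays lay between -0.02 and 0.11 on arrays 1 to 4, and the median was -1.06 on array 5 over 16 genes. The listed genes with a value on arrays 4 and 5 were thus higher than these by their medians, a difference that was not tested.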

How the data were processed

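RNA co-purified with zzYra1 and total RNA were compared on 5 arrays of 2 platforms. The authors deposited 1 log10 ratio per spot. The log base was read from the values: with base 10, between 36.7% (array 3) and 93.9% (array 4) were fractions of whole numbers up to 65535 with a product under 100000000, against 4.50% to 5.16% with base 2. No source used here states the background correction or the direction of the ratio. Ratios were put on the log2 scale and centred on each array's median spot, which for the deposited values lay between -1.39 and 1.34. Spots of a gene were averaged. Names came from the platform annotation, brought up to date with the RefSeq gene table (assembly R64), where 5578 of 5583 and 5534 of 5539 genes were found. Of the spots, 985 and 1662 were unnamed here. Deposited spots without a value were left out.

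Genes with a value in all 4 units were tested against 0 with limma 3.58.1 (R 4.3.3), Benjamini-Hochberg adjustment over 703 genes and a threshold of 0.05. In 2 of the 7 tested genes of the list, SOD2 and TKL1, array 1 alone formed the first unit. The fit was checked on simulated data, in which the shifted genes had a smaller spread than the measured one. That check does not show how often a real shift would pass at the measured spread. Python 3.11.15, numpy 2.4.6, pandas 2.3.3 and matplotlib 3.10.9 did the rest. Alternatives turned the channel 2 arrays, kept only these, took each array as a replicate, accepted 3 units, scaled arrays, took spot medians, centred on the mean, used the trend and robust options, left out arrays, and removed a running median over 81 spots, the last chosen after seeing the data. The genes, their roles and these tests were chosen with earlier results of these data known. All 42 genes of the list may be named, and of the others the highest and lowest tested.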

Additional observations from a re-analysis of the deposited data

Results flagged for a closer look

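In ECM38 the unit formed by arrays 1 and 2 stood apart from the other 3 units, at -0.39 against 2.62 to 3.21. The median of the 7 tested genes showed the same unit apart, at -0.68 against 1.46 on array 3, 1.32 on array 4 and 1.61 on array 5. A single unit far from the rest was looked for in 8 sets of values by Dixon's test at 95%, where chance would flag 0.4. The 2 are not independent, since ECM38 is part of that median. With the channel 2 arrays turned, neither stood apart: the ECM38 units were then 0.67, 2.99, -3.21 and -2.62, and 1 of the 8 sets did, ZWF1, with 3.79 on array 4 against 0.11 to 0.67. Arrays 1 and 2 are also the arrays of the first platform, so unit and platform cannot be told apart.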

How the results depend on the processing

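No gene passed the adjusted threshold under any of the 15 alternatives, and the smallest adjusted p of a tested gene of the list over them was 0.28 (limma, ECM38 without arrays 1 and 2). With the channel 2 arrays turned, the median of the 7 genes was -0.53 and the means were SOD1 -0.024, SOD2 -0.82, AHP1 -1.05, GRX3 -0.44, ECM38 -0.54 and ZWF1 1.27, all opposite in sign to the means as deposited, while TKL1 kept its sign at -0.53. Here the direction of the ratio is the change made, and the sources do not settle it. Leaving out arrays moved the median between 0.059 and 1.41, over changing sets of genes, and TKL1 between -0.69 and 0.74, the one gene of the 7 whose sign changed under these. It moved SOD1 between 0.96 and 2.55, SOD2 between 1.07 and 2.43, AHP1 between 0.29 and 1.41, GRX3 between 0.35 and 1.21, ECM38 between 1.74 and 2.94 and ZWF1 between -2.05 and -0.75. With a running median of 81 spots removed, chosen after seeing the data, the median was 0.83 and the means were SOD1 1.28, SOD2 1.39, AHP1 0.83, GRX3 0.24, ECM38 2.50, ZWF1 -1.22 and TKL1 -0.32. Genes at an unadjusted p under 0.05 numbered 55 in the main setting, 17 with the channel 2 arrays turned, 19 with trend and robust, 32 with each array a replicate, 119 of 2422 with at least 3 units and 84 of 1737 without array 5. Each ratio compares the 2 RNAs within 1 array, so the test against 0 already holds this pairing. As there is 1 group, no further pairing between groups was possible. Depth in the sense of signal over background is unknown, since only ratios were used, and low ratios on array 5 are fractions with very small top terms.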

Other observations

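On arrays 1 and 2, 1 term of the fraction behind each ratio was of a special form. Among fractions in lowest terms, the bottom term left a remainder of 1 on division by 50 in 80.2% on array 1, and the top term did so in 82.8% on array 2. The other terms did so in 2.31% and 2.03%. The large median term changed sides in the same way: it was at the bottom on array 1 (164 over 4051) and at the top on array 2 (5201 over 239). Which channel or RNA carried it cannot be told apart from these files.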
